A study of Mus musculus with 45 samples.

Results

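The integrated stress response was followed through 35 genes in mouse dendritic cells: the kinase PERK, the transcription factor ATF4 with its partners, and genes of amino acid supply and tRNA charging that are described as its targets. The members were given by name, and all 35 had a row among the 23420 genes measured. Of these, 30 had enough counts to be tested, among 10287 genes tested in all. RNA was sequenced from 45 libraries in 9 groups of 5 biological replicates. The cells were C57BL/6 bone marrow cultures grown in 20 ng/ml GM-CSF, from which live cells with high CD11c were sorted. Wild type (WT) cells stayed in medium or received lipopolysaccharide (LPS, the bacterial ligand of Toll-like receptor 4), 4µ8C, 4PBA or Rapamycin for 8 h. Bat3 fl/fl CD11c Cre cells (KO) stayed in medium or received LPS, 4µ8C or 4PBA for the same time. Bat3 is an older name of Bag6, a cytosolic chaperone gene. The Cre is driven by CD11c, so cells without it keep the gene. 4µ8C blocks the RNase of the stress sensor IRE1, 4PBA is a chemical chaperone and histone deacetylase inhibitor, and rapamycin blocks mTORC1, a kinase complex that drives growth. The labels do not state whether LPS was added along with 4µ8C, 4PBA or rapamycin, and no vehicle group is named.

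In the integrated stress response, kinases that sense unfolded proteins (PERK, encoded by Eif2ak3), amino acid shortage, double-stranded RNA or haem shortage phosphorylate the initiation factor eIF2α. Most translation then slows, while the mRNA of Atf4 is translated more, so that ATF4 activity is set largely by translation and less by the level of its mRNA. ATF4 pairs with C/EBP proteins to switch on genes of amino acid synthesis, amino acid uptake and tRNA charging, and GADD34 (Ppp1r15a) reverses the phosphorylation. mTORC1 also raises ATF4 translation, by a route that does not need eIF2α phosphorylation.

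Each library summed to between 1509219 and 4737736 expected counts. Mean Bag6 was lower in the KO group of each shared treatment than in the WT group, at 9.22 ± 2.83 against 14.4 ± 2.16 CPM (counts scaled to one common library total; SD, n = 5) in medium and 7.53 ± 2.85 against 14.6 ± 3.55 CPM with 4PBA. None of the 4 differences passed across all genes (edgeR adjusted p = 0.072 in medium, 0.18 with LPS, 0.52 with 4µ8C and 0.072 with 4PBA). KO replicate 4 held the highest Bag6 of its group in all 4 groups, at 12.4 to 14.9 CPM, so counts in KO cells are also given without these 4 libraries. The library codes in the labels look like plate positions, and 17 libraries carry an outer code (row A, column 1 or column 12). They include every library of WT medium and of WT LPS, but no KO medium, WT 4PBA or KO 4PBA library. Within the 4 groups that hold both kinds of code, 350 of 9557 genes differed by code, 343 of them lower in outer codes, and 0 of the 29 members tested there did (edgeR adjusted p under 0.05; 4 members had an unadjusted p under 0.05). These were Ddit4, Stc2, Eif2ak3 and Shmt2, all lower in outer codes. Summed dendritic cell markers held 2453 to 6881 CPM, among them H2-Ab1 at 553 to 2448 CPM, while Flt3 was at 0 in 22 libraries and Cd209a in 42. Summed macrophage markers held 1391 to 3717 CPM, neutrophil markers at most 24.9 CPM, and T, B, NK, mast and erythroid markers at most 1.70 CPM each. Cd3g, Gzma, Nkg7, Mcpt8, Mcpt4 and Hba-a2 were at 0 in every library.

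Levels per transcript length differed widely among the members. In TPM, RSEM's measure scaled for transcript length and library total, and averaged over the 45 libraries, Atf3 was highest at 914, followed by Eif4ebp1 at 504, Slc3a2 at 488, Nupr1 at 355, Atf4 at 193 and Ddit3 at 174. The tRNA synthetases lay between 44.1 TPM for Nars and 6.46 TPM for Yars. The sensor itself, Eif2ak3, was listed at 0.811 TPM, with 1 to 25 expected counts per library. The 5 members with too few counts to be tested were Chac1, a glutathione-degrading enzyme, Slc7a5, the light chain of the leucine transporter, Vldlr, a lipoprotein receptor, Cth, of cysteine synthesis, and Pycr1, of proline synthesis. Chac1 reached at most 13 counts in a library and Vldlr at most 15. Slc7a5 reached at most 8, Cth at most 4 and Pycr1 at most 3, and Cth was at 0 in 32 of 45 libraries. Slc3a2, the partner chain of Slc7a5, was therefore among the highest members and Slc7a5 among the lowest, at 0.226 TPM.

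Because ATF4 acts with C/EBP proteins at a composite element, the promoters of the members were searched for its letters, TGATGNAA, on both strands. RefSeq promoter windows on GRCm38.p6, from 250 bases before to 50 bases after the start, were found for 29 members. The windows of 11 members held at least 1 match, among them Atf3, Nupr1, Trib3, Chac1, Asns, Pycr1, Vldlr, Gars, Tars and Yars. Of all 32851 windows in the table, 1304 held one (3.97%). Slc7a5, Wars, Nars, Lars, Eif4ebp1 and Cth had no window. Those printed here come from members that moved in opposite directions after LPS in WT cells or did not pass, and each is printed on the strand where the element reads as given, with the element in capitals and 11 bases on either side.
Atf3: cgcggacttggTGATGCAAgtgcgagaagg
Nupr1: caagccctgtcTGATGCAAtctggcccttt
Asns: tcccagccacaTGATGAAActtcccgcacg
Gars: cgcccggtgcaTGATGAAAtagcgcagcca
Tars: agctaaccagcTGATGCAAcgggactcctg
They lie at chr1:191183425-191183454 (plus strand) for Atf3, chr7:126625562-126625591 (plus strand) for Nupr1, chr6:7693214-7693243 (minus strand) for Asns, chr6:55037960-55037989 (minus strand) for Gars and chr15:11399655-11399684 (plus strand) for Tars, all on GRCm38.p6. All of them begin upstream of the annotated start, by 23 bases in Asns and by 110 bases in Atf3. A match describes the letters and not a bound site, and Mars, Eprs, Sars, Phgdh, Ddit4 and Ppp1r15a had none in their windows.

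LPS against medium in WT cells asked what a bacterial signal does to these genes. The stress-inducible genes Atf3, Nupr1, Ppp1r15a and Ddit4 rose, while Ddit3, Trib3, Sesn2 and Stc2, of the same kind, did not pass the test. Of the 6 tested amino acid enzymes 3 fell, as did 7 of the 10 tRNA synthetases, and Atf4 mRNA did not pass. Of the 30 members tested, 6 were higher and 11 lower (edgeR adjusted p under 0.05), where 18.8% of all genes tested were higher and 21.3% lower. The share of members called higher was near that of all genes, and the share called lower was above it. The median log2 fold change was -0.37 over the members and -0.07 over all genes.

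Atf3, a transcription factor induced by many stresses, held 458, 506, 621, 751 and 1009.8 CPM in the 5 WT medium libraries and 1414, 1540.2, 1603, 1626 and 1883 CPM in the 5 WT LPS libraries. The groups did not overlap, and the log2 fold change was 1.27 ± 0.15 (SE; 2.41-fold higher, edgeR adjusted p = 1.7e-09). Nupr1, a small stress-induced chromatin protein, went from 30.2, 30.2, 34.9, 42.3 and 55.7 CPM in medium to 85.5, 114, 151, 165 and 166 CPM with LPS. Every LPS library lay above every medium library (log2 fold change 1.81 ± 0.21, adjusted p = 2.5e-09). Ppp1r15a, the stress-induced eIF2α phosphatase subunit, held 65.1, 70.4, 78.1, 97.6 and 128 CPM in medium and 116, 150, 169, 219.9 and 233 CPM with LPS. The lowest LPS library lay below the highest medium library, and the difference passed at 1.01 ± 0.20 (adjusted p = 8.9e-05). Ddit4, which encodes the mTORC1 inhibitor REDD1, rose from 12.8, 13.7, 13.9, 14.8 and 16 CPM to 25, 26.6, 27.9, 34.6 and 38.3 CPM. The groups were apart, with a log2 fold change of 1.09 ± 0.18 (adjusted p = 1.5e-06). Slc3a2, the heavy chain of several amino acid transporters, rose by 0.63 ± 0.13, from 667 ± 177 to 1031 ± 43.9 CPM. Mthfd2, a mitochondrial folate enzyme, rose by 0.39 ± 0.14.

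Atf4 held 152, 159, 200.4, 217 and 226 CPM in WT medium and 145, 149.6, 174, 194 and 206 CPM in WT LPS libraries, and the ranges overlapped (log2 fold change -0.13 ± 0.14, edgeR adjusted p = 0.49). Ddit3, which encodes the factor CHOP, ran from 80.2 to 118 CPM in WT medium and from 72.7 to 90 CPM in WT LPS libraries (log2 fold change -0.17 ± 0.16, adjusted p = 0.42). In RefSeq the genes of Ddit3 and Mars overlap at their ends on opposite strands, and the labels do not state that counting used strand, so reads from that overlap cannot be told apart. Atf5, a relative of ATF4 of the mitochondrial stress response, was sparse and fell by 1.47 on the log2 scale, from 0.802, 1.96, 3.85, 5.43 and 10.8 CPM to 0.525, 1.4, 1.5, 1.52 and 3.42 CPM. The ranges of Atf5 overlapped, and the call was lost without any one of 3 libraries (WT medium replicate 4, WT LPS replicates 1 and 5; adjusted p up to 0.2). Trib3, a pseudokinase that restrains ATF4 and CHOP, and Cebpg, a C/EBP partner of ATF4, did not pass, at -0.44 ± 0.26 and -0.41 ± 0.28.

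Among the enzymes, Phgdh, the first step of serine synthesis, fell from 3.92, 4.34, 4.54, 5.35 and 7.7 CPM in WT medium to 0.75, 0.761, 1.12, 2.1 and 3.99 CPM with LPS. A single LPS library reached into the medium range (log2 fold change -1.68 ± 0.51, edgeR adjusted p = 0.0065). Psat1, the next enzyme of the same route, did not pass, at 0.35 ± 0.19 (adjusted p = 0.14). Asns, asparagine synthetase and a classical ATF4 target, went from 17.6, 23.6, 27.6, 32.9 and 33.3 CPM to 9.51, 9.97, 10.9, 19.9 and 20.2 CPM. The log2 fold change of Asns was -0.95 ± 0.33 (adjusted p = 0.021), and it did not pass without WT medium replicate 1 or WT LPS replicate 1, 2 or 5 (adjusted p up to 0.063), nor with no filter on low counts (-0.95, adjusted p = 0.051). Aldh18a1, the first enzyme of proline synthesis from glutamate, fell by 1.36 on the log2 scale, from 9.74 ± 3.69 to 3.8 ± 2.44 CPM (SD, n = 5). Shmt2, which passes a carbon unit from serine to folate, did not pass at -0.61 ± 0.35. The Mthfd2 call was lost without WT medium replicate 2 or 4 or WT LPS replicate 3 or 4 (adjusted p up to 0.074). The serine and folate enzymes thus held a fall (Phgdh), a rise (Mthfd2) and others that did not pass.

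Of the 10 tRNA synthetases among the members, which load amino acids on tRNA, 7 fell and 0 rose in WT cells after LPS (0 rose by unadjusted p and by DESeq2 too), with a median log2 fold change of -0.76. Mars, which loads methionine, held 35.6, 36, 40.6, 44.6 and 45.6 CPM in medium and 13.1, 14.8, 17.9, 18 and 24.5 CPM with LPS. The groups were apart, and Mars was 2.3-fold lower with LPS (log2 fold change -1.20 ± 0.17, adjusted p = 1.6e-07). Eprs, which loads glutamate and proline, went from 57.1, 59.3, 66.3, 72.1 and 73.8 CPM to 25.5, 26.2, 36.7, 37.8 and 39.7 CPM. Again no LPS library reached the medium range (-0.98 ± 0.16). Sars, for serine, held 97.1, 101, 107, 112 and 121 CPM in medium and 53.3, 55.6, 65.4, 65.5 and 66 CPM with LPS (-0.82 ± 0.11), and Gars, for glycine, 61.6, 75.8, 77.2, 81.3 and 86.8 CPM and 36.5, 39.7, 46.5, 46.8 and 50.9 CPM (-0.79 ± 0.15). Both were apart between the groups, as was Nars, for asparagine, whose medium libraries lay at 90.4 to 100.3 CPM and LPS libraries at 66.1 to 85.9 CPM (-0.37 ± 0.11). Yars, for tyrosine (-0.99 ± 0.22), and Lars, for leucine (-0.72 ± 0.23), fell as well. Aars, which loads alanine, held 78.7 to 106 CPM in medium and 69.8 to 93.4 CPM with LPS and did not pass (-0.11 ± 0.15). Wars, for tryptophan, did not pass either (0.15 ± 0.12, adjusted p = 0.36), nor did Tars, for threonine (-0.45 ± 0.20, adjusted p = 0.07). Both groups carry outer codes only, so a term for code cancels between them. The 17 members called with that term are therefore no check on this comparison. The macrophage marker sum was 2345 to 3717 CPM in WT medium and 2181 to 2486 CPM in WT LPS libraries, and of 9 macrophage markers 1 rose and 4 fell. The part of these cells in the members' differences was not tested. In such bulk RNA, fewer cells of a type and less RNA per cell cannot be told apart.

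**Figure D1:**
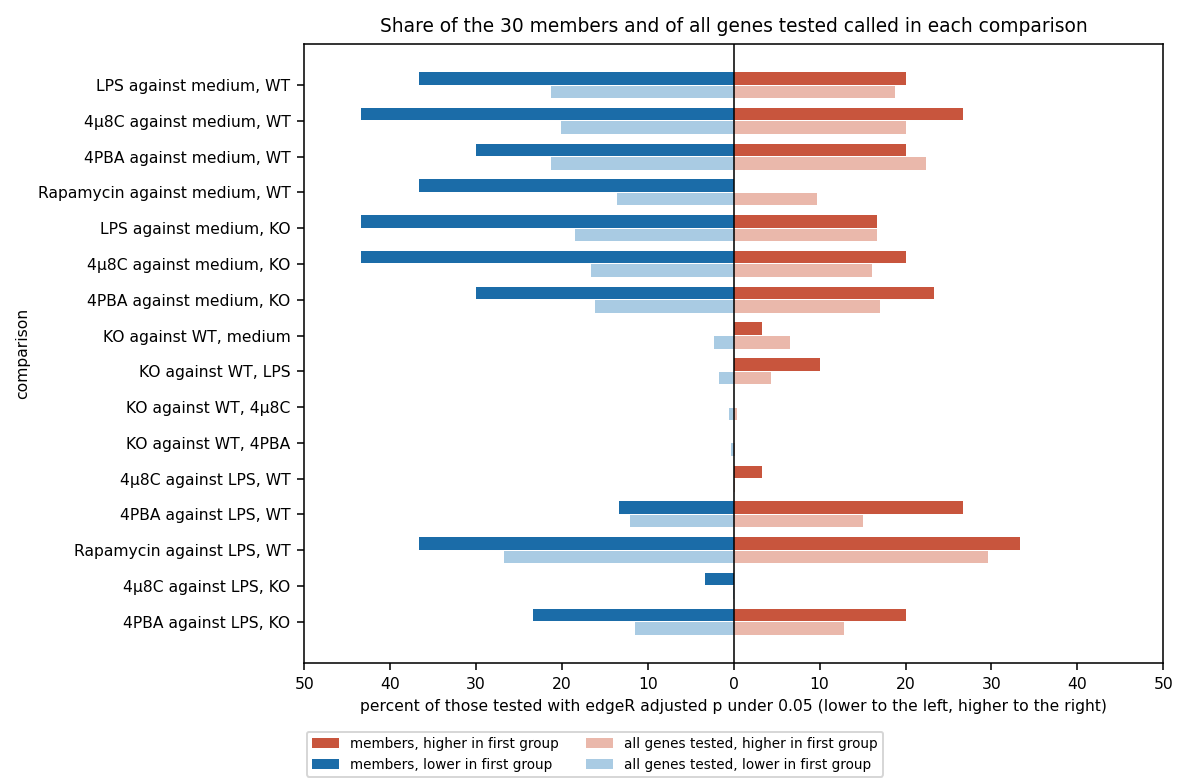
Percent of the 30 members tested (dark bars) and of all 10287 genes tested (pale bars) with edgeR adjusted p under 0.05 in each comparison of a pair of groups, higher in the first group to the right and lower to the left. After LPS in WT cells 11 of 30 members were lower, against 21.3% of all genes, and with rapamycin against medium none was higher.

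LPS against medium in KO cells asked the same of the cells labelled Bat3 KO. Nupr1, Atf3, Ppp1r15a, Ddit4 and Slc3a2 rose, and 8 synthetases and 4 amino acid enzymes fell. Counted together, 5 members were higher and 13 lower, where 16.7% of all genes were higher and 18.5% lower, with a median of -0.34 over the members and -0.08 over all genes. Of the 17 members called in WT and the 18 called in KO cells, 16 were called in both and in the same direction (94.1% and 88.9%), where 2706 of all genes were (65.6% of the WT and 74.8% of the KO calls). Mthfd2 was called in WT cells only (0.05 ± 0.14 in KO, adjusted p = 0.81), and Shmt2 (-1.40 ± 0.38) and Tars (-0.54 ± 0.20) in KO cells only. The difference itself, tested as an interaction of LPS with genotype, was called for 0 members by edgeR and by DESeq2, and 1 member, Sars, had an unadjusted p under 0.05.

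Nupr1 held 32.3, 32.9, 50, 52.6 and 53.6 CPM in the KO medium libraries and 198, 207, 211, 236 and 283 CPM in the KO LPS libraries. The groups were far apart (log2 fold change 2.36 ± 0.21, 5.12-fold higher, edgeR adjusted p = 3.9e-12). Atf3 rose from 803 ± 152 to 1909 ± 184 CPM (1.25 ± 0.15), Ppp1r15a by 1.20 ± 0.20, Ddit4 by 1.38 ± 0.16 and Slc3a2 by 0.68 ± 0.13. Aldh18a1 held 3.23, 5.04, 6.48, 9.68 and 12 CPM in medium and 1.31, 1.48, 1.56, 2.47 and 2.72 CPM with LPS. No LPS library of Aldh18a1 reached the medium range (log2 fold change -1.90 ± 0.40). Phgdh (-1.71 ± 0.49), Atf5 (-1.77 ± 0.50) and Asns (-0.96 ± 0.33) fell as well. Of the 10 synthetases 8 fell, with Yars at -1.20 ± 0.22, Mars at -0.95 ± 0.17 and Eprs at -0.78 ± 0.16. Without the 4 libraries of KO replicate 4, 17 members were called, the lost call being Nars (-0.29, adjusted p = 0.083). Asns and Nars were not called without KO LPS replicate 2 or 3 (adjusted p up to 0.068 and 0.071), and Tars without any one of 5 libraries (adjusted p up to 0.096).

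**Figure D2:**
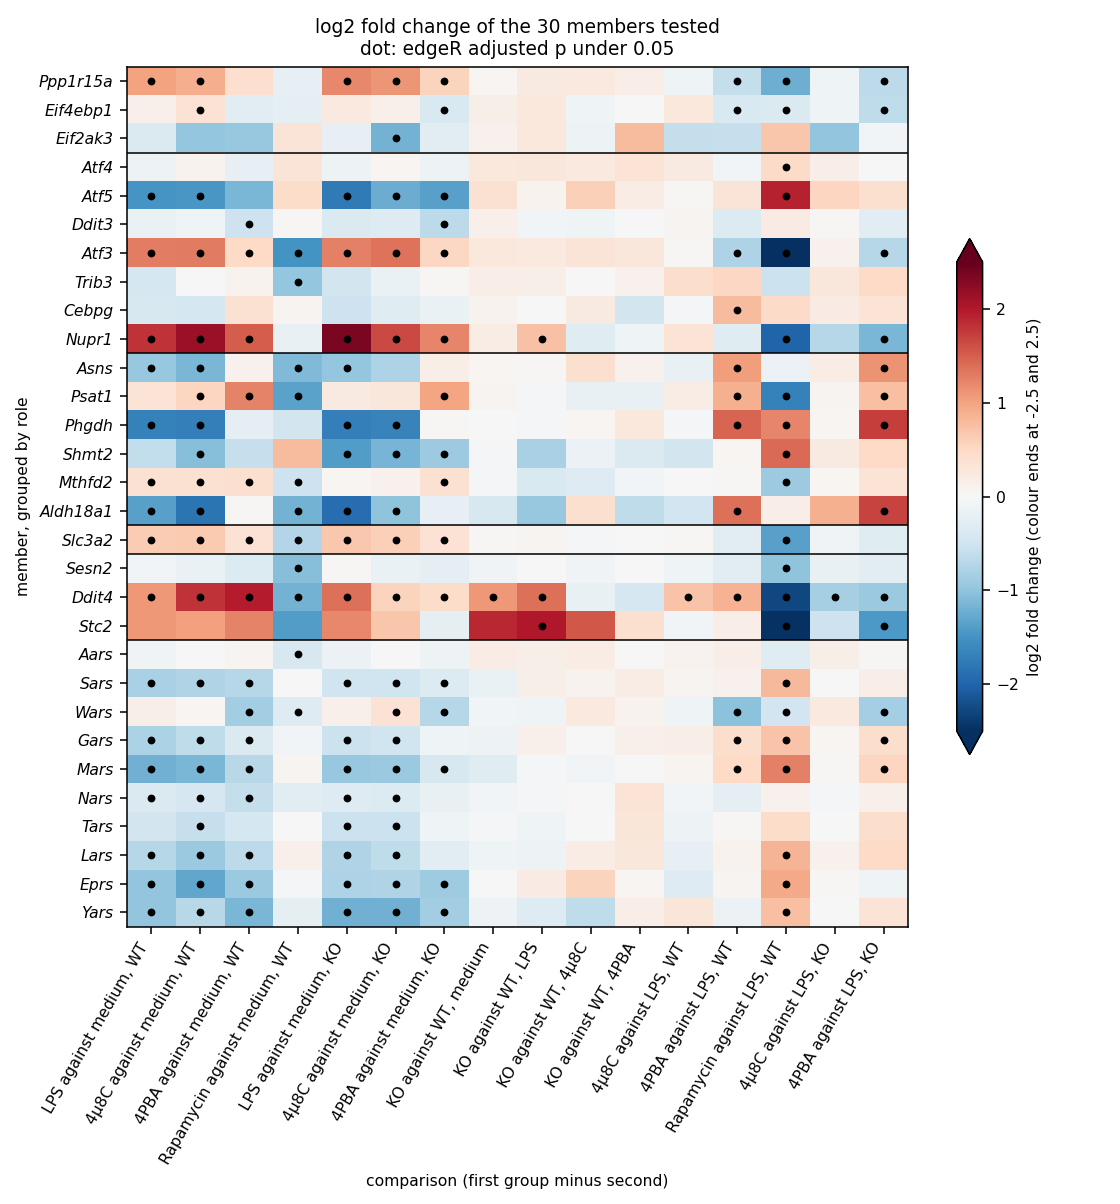
Log2 fold change (colour, first group minus second) of the 30 members tested, in rows by role, in 16 comparisons of a pair of groups, with a dot where edgeR's adjusted p was under 0.05. Atf3, Nupr1 and Ddit4 are red and most tRNA synthetases blue in the columns against medium other than rapamycin, and the columns of KO against WT hold 4 dots.

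The 4µ8C groups were set against medium and against LPS. The labels do not state whether these groups also received LPS. Effects of 4µ8C and of LPS on the difference from medium therefore cannot be told apart. Over all genes, 4122 were called against medium and 21 against LPS in WT cells, and 3360 and 3 in KO cells. Against medium 17 members moved in the same direction in both genotypes, and against LPS a single member, Ddit4, was called in each genotype. In WT cells 8 members were higher and 13 lower than in medium, where 20.0% of all genes were higher and 20.1% lower. In KO cells 6 were higher and 13 lower, where 16.1% and 16.6% of all genes were. The 17 shared calls were 81.0% of the WT and 89.5% of the KO calls on members, where 2508 of all genes were shared (60.8% and 74.6%). The medians were -0.29 in WT and -0.31 in KO cells, against -0.05 and -0.07 over all genes. The 2 comparisons share their medium libraries with those of LPS, so they are no independent repeat.

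Nupr1 held 99.2, 138, 178, 198 and 255 CPM in WT 4µ8C libraries, all above WT medium (log2 fold change 2.15 ± 0.21), and 124, 127, 145, 147 and 151 CPM in KO 4µ8C libraries (1.65 ± 0.21). Atf3 held 1640.3 ± 344 CPM in WT and 2048 ± 292 CPM in KO cells with 4µ8C, 1.29 ± 0.15 and 1.35 ± 0.15 against medium. Ppp1r15a rose by 0.90 ± 0.20 and 1.10 ± 0.20, and Slc3a2 by 0.65 ± 0.13 and 0.60 ± 0.13. Eif4ebp1 was called in WT cells, with 261, 297, 309.7, 357 and 509 CPM against 200.4, 251, 277, 281 and 325 CPM in medium (0.37 ± 0.13; KO 0.13 ± 0.13). Its ranges overlapped, and the call was lost without WT medium replicate 3 or WT 4µ8C replicate 4 (adjusted p up to 0.18). Atf4 did not pass in either genotype (0.08 ± 0.14 and 0.05 ± 0.14), nor did Ddit3 (-0.10 ± 0.16 and -0.33 ± 0.16). Eif2ak3, the gene of PERK, was called only here, in KO cells, at 0.814, 1.02, 1.54, 1.69 and 1.95 CPM against 1.74, 2.49, 3.43, 3.96 and 4.47 CPM in medium. Its ranges overlapped on few counts (log2 fold change -1.19 ± 0.45, edgeR adjusted p = 0.036). The Eif2ak3 call was lost with code as a term (-0.94, adjusted p = 0.12) and without any one of 5 libraries (adjusted p up to 0.1).

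Phgdh held 0, 0.37, 0.485, 1.85 and 4.85 CPM in WT 4µ8C libraries (-1.71 ± 0.52 against medium) and 0.488, 1.35, 1.63, 1.7 and 2.47 CPM in KO 4µ8C libraries (-1.67 ± 0.49). Aldh18a1 fell by 1.83 in WT and 1.01 in KO cells on the log2 scale, and Shmt2 by 1.06 and 1.17. Asns was lower in WT (-1.14 ± 0.35) and did not pass in KO cells (-0.78 ± 0.32, adjusted p = 0.06). Psat1 rose in WT cells, from 8.02, 12.8, 13.2, 14.5 and 15.1 CPM in medium to 17, 17.2, 18.9, 19.4 and 21.3 CPM. Its groups did not overlap (0.54 ± 0.19), while KO cells gave 0.28 ± 0.19 (adjusted p = 0.25). Of the 10 synthetases 8 fell in each genotype, Eprs (-1.30 ± 0.17 in WT, -0.76 ± 0.16 in KO) and Mars (-1.14 ± 0.18 and -0.92 ± 0.17) among them. Wars rose with 4µ8C in KO cells, from 55.7, 58.4, 58.5, 61.5 and 71 CPM to 75.2, 76.9, 78.2, 80.5 and 83 CPM (0.37 ± 0.12), where WT cells gave 0.04 ± 0.13 and the interaction was 0.32 ± 0.18 (adjusted p = 0.56). The Wars call was lost with no filter on low counts (0.37, adjusted p = 0.055).

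Several of these 4µ8C calls rested on few libraries. In WT cells Atf5, Psat1, Shmt2, Mthfd2, Tars, Yars and Eif4ebp1 lost their call without at least 1 of the 10 libraries, the adjusted p reaching 0.16 for Mthfd2 and 0.23 for Atf5. A single library ended the call of Psat1 (WT medium replicate 2, adjusted p = 0.087) and of Yars (WT medium replicate 1, adjusted p = 0.052). In KO cells the calls lost in this way were Atf5, Shmt2, Tars, Lars, Eif2ak3 and Aldh18a1, with adjusted p up to 0.11 for Atf5. Without KO replicate 4, 15 members were called in KO cells, and Atf5, Shmt2, Nars, Eif2ak3 and Aldh18a1 were not. With code as a term, 17 members were called in WT cells, and Atf5, Asns, Psat1, Tars and Yars were not. With no filter on low counts the KO calls of Atf5, Nars and Eif2ak3 were lost as well (adjusted p = 0.051, 0.055 and 0.08). Of 9 macrophage markers 1 rose and 3 fell with 4µ8C in WT and 2 rose and 2 fell in KO cells, and their part was not tested.

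Against LPS, Ddit4 was higher with 4µ8C in WT cells (log2 fold change 0.72 ± 0.17, edgeR adjusted p = 0.046) and lower in KO cells (-0.83 ± 0.16, adjusted p = 0.022). In WT cells 0.204% of all genes were called in this comparison and in KO cells 0.0292%. No other member was called by edgeR or DESeq2, and in WT cells no other had an unadjusted p under 0.05, while Nupr1 (-0.71 ± 0.20) and Eif2ak3 (-0.99 ± 0.47) did in KO cells. The WT call was lost with code as a term (0.52, adjusted p = 0.41) and without any WT LPS library or WT 4µ8C replicate 1, 2 or 3 (adjusted p up to 0.27). The KO call was lost without KO LPS replicate 1 or 2 or KO 4µ8C replicate 2, 3 or 5 (adjusted p up to 0.11) and without KO replicate 4 (-0.85, adjusted p = 0.073). With the replicate number as a block, which pairs these KO libraries, 2 members were called.

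The 4PBA groups were set against medium in the same way, and whether they also received LPS is not stated. Nupr1, Atf3, Ddit4 and the serine enzyme Psat1 rose in both genotypes, most synthetases fell in WT cells, and Asns, Phgdh and Aldh18a1 did not pass in either genotype. In WT cells 6 members were higher and 9 lower, where 22.4% of all genes were higher and 21.3% lower, so that the share higher was near the background, and the median was -0.25 against -0.01. In KO cells 7 were higher and 9 lower, where 17.0% and 16.2% of all genes were, and the median was -0.18 against -0.02. In both genotypes 12 members were called in the same direction, 80% of the 15 WT calls and 75% of the 16 KO calls, where 2510 of all genes were (55.8% and 73.5%). WT medium libraries carry outer and WT 4PBA libraries inner codes only, and with code as a term 15 members were called there. Both KO groups carry inner codes only. The macrophage marker sum was 1719 to 2768 CPM in WT 4PBA and 1391 to 1837 CPM in KO 4PBA libraries, against 2345 to 3717 CPM and 2007 to 2318 CPM in medium, and of 9 macrophage markers 0 rose and 2 fell in KO cells and 2 rose and 5 fell in WT cells. Its part was not tested.

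Psat1 held 8.02, 12.8, 13.2, 14.5 and 15.1 CPM in WT medium and 24, 27.3, 28.9, 31.4 and 39.7 CPM in WT 4PBA libraries. All 4PBA libraries lay above all medium libraries (log2 fold change 1.24 ± 0.18, edgeR adjusted p = 1.7e-07). In KO cells Psat1 went from 10.6, 11.7, 11.9, 13.5 and 18.9 CPM to 23.9, 24.6, 25.2, 28.3 and 30.4 CPM. These groups were apart too (0.99 ± 0.18). Asns, at 28.8 ± 6.76 CPM in WT and 30.9 ± 12.1 CPM in KO cells with 4PBA, did not pass (0.10 ± 0.31 and 0.17 ± 0.30), and neither did Phgdh (-0.24 ± 0.42 and 0.02 ± 0.41) or Aldh18a1 (0.02 ± 0.32 and -0.21 ± 0.34). Shmt2 was called lower in KO cells (-0.91 ± 0.35; -0.57 ± 0.34 in WT) and Mthfd2 higher in both (0.41 ± 0.14 and 0.39 ± 0.14).

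Wars, which was not called lower with LPS or 4µ8C, fell with 4PBA in both genotypes. It held 29, 30.8, 31.7, 34.6 and 47.2 CPM in WT 4PBA against 55.3, 56.2, 61.9, 64.1 and 82.6 CPM in WT medium libraries. The groups were apart (log2 fold change -0.87 ± 0.13), as they were in KO cells, with 29.2, 34.6, 36.8, 40.2 and 43.7 CPM with 4PBA (-0.72 ± 0.13). Eprs (-0.92 ± 0.16 and -0.89 ± 0.16), Yars (-1.15 ± 0.21 and -0.86 ± 0.21), Sars (-0.71 ± 0.11 and -0.34 ± 0.11) and Mars (-0.70 ± 0.16 and -0.41 ± 0.17) fell in both genotypes as well. Gars, Nars and Lars were called in WT cells only, and the interaction was called for none of them. The Gars call (-0.37 ± 0.15) was lost without any one of 9 libraries, with code as a term (-0.22, adjusted p = 0.42) and in DESeq2 (adjusted p = 0.05 as rounded). The WT calls of Slc3a2 (without WT medium replicate 3 or 4, adjusted p up to 0.087) and Lars (without WT 4PBA replicate 1, adjusted p = 0.062) were lost in this way too.

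Ddit3 was called lower with 4PBA, its only calls in the 16 comparisons. WT 4PBA libraries held 52.6, 62.7, 63.8, 65.2 and 75.4 CPM and WT medium libraries 80.2, 82.3, 86.6, 90.1 and 118 CPM. These did not overlap (log2 fold change -0.52 ± 0.16), but with code as a term the value was -0.32 (adjusted p = 0.25). In KO cells, where no code differs, the Ddit3 libraries held 54.1, 58.9, 61, 69.6 and 71.6 CPM with 4PBA and 70.6, 75.9, 106, 119 and 125 CPM in medium (-0.65 ± 0.16). The KO ranges overlapped. Nupr1 rose by 1.51 ± 0.21 in WT and 1.22 ± 0.21 in KO cells, and Atf3 by 0.50 ± 0.15 and 0.52 ± 0.15. Ppp1r15a was called in KO cells (0.55 ± 0.20; WT 0.42 ± 0.20), and Eif4ebp1, which encodes the cap-binding inhibitor 4E-BP1, was called lower there (-0.39 ± 0.13; WT -0.26 ± 0.13), as was Atf5 (-1.36 ± 0.47; WT -1.15 ± 0.50). In KO cells 8 of the 16 calls were lost without at least 1 of the 10 libraries. Without KO replicate 4, 9 members were called, and the same number without KO medium replicate 4 alone. The calls lost without KO replicate 4 were Sars, Eif4ebp1, Mars, Shmt2, Mthfd2, Slc3a2 and Ddit4, with adjusted p from 0.054 for Slc3a2 to 0.12 for Shmt2. Atf5 and Ppp1r15a lost theirs without any one of 3 and 6 single libraries (adjusted p up to 0.068 and 0.094). The KO call of Mars was lost without any one of 8 of the 10 libraries (adjusted p up to 0.13) and with RLE size factors (adjusted p = 0.055). With no filter on low counts the KO calls of Sars, Ppp1r15a, Shmt2 and Mars were lost (adjusted p = 0.061, 0.071, 0.074 and 0.096).

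Set against LPS, 4 of the 6 tested amino acid enzymes were higher with 4PBA in each genotype, and Atf3, Ppp1r15a and Wars were lower in both. In WT cells 8 of the 30 members were higher and 4 lower. Of all 10287 genes tested, 1543 were higher and 1238 lower, 27.0% in either direction. In KO cells 6 were higher and 7 lower, where 12.9% and 11.5% of all genes were. Asns (1.05 ± 0.34 in WT, 1.13 ± 0.33 in KO), Phgdh (1.45 ± 0.52 and 1.73 ± 0.49), Aldh18a1 (1.38 ± 0.37 and 1.69 ± 0.41) and Psat1 (0.89 ± 0.18 and 0.76 ± 0.18) were higher in both genotypes. Gars and Mars were higher too, by 0.43 ± 0.16 and 0.50 ± 0.18 in WT cells and by 0.43 ± 0.15 and 0.54 ± 0.18 in KO cells. Atf3 (-0.77 ± 0.15 and -0.72 ± 0.15), Ppp1r15a (-0.59 ± 0.20 and -0.65 ± 0.20), Wars (-1.02 ± 0.13 and -0.84 ± 0.13) and Eif4ebp1 (-0.38 ± 0.13 and -0.63 ± 0.13) were lower in both. Ddit4 was higher with 4PBA than with LPS in WT cells (0.87 ± 0.16) and lower in KO cells (-0.92 ± 0.16). Cebpg was called only here, in WT cells, at 7.59, 7.68, 7.88, 8.13 and 14.5 CPM with 4PBA and 3.37, 3.67, 5.71, 6.27 and 7.01 CPM with LPS (0.79 ± 0.28). Nupr1 was lower with 4PBA than with LPS in KO cells (-1.14 ± 0.20), and in WT cells gave -0.30 ± 0.20 (adjusted p = 0.29). In WT cells the calls of Asns, Phgdh, Ppp1r15a, Cebpg, Gars, Mars and Eif4ebp1 were lost without at least 1 of the 10 libraries (for Phgdh, adjusted p up to 0.16). WT LPS libraries carry outer and WT 4PBA libraries inner codes only, and 8 members were called with code as a term. Lost with that term were Ppp1r15a, Cebpg, Mars and Eif4ebp1 (edgeR adjusted p = 0.13, 0.053, 0.069 and 0.3). With no filter on low counts Ppp1r15a, Cebpg and Mars were lost (adjusted p = 0.062, 0.067 and 0.058). In KO cells Asns, Ppp1r15a, Gars, Mars and Stc2 lost their call without at least 1 of the 10 libraries (for Stc2, adjusted p up to 0.27), and 10 members were called without KO replicate 4. The macrophage marker sum was 1391 to 1837 CPM in KO 4PBA and 1952 to 2321 CPM in KO LPS libraries, with no overlap, and of 9 markers 1 rose and 2 fell. In WT cells it was 1719 to 2768 CPM and 2181 to 2486 CPM, and 2 rose and 1 fell. Its part in these differences was not tested.

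**Figure D3:**
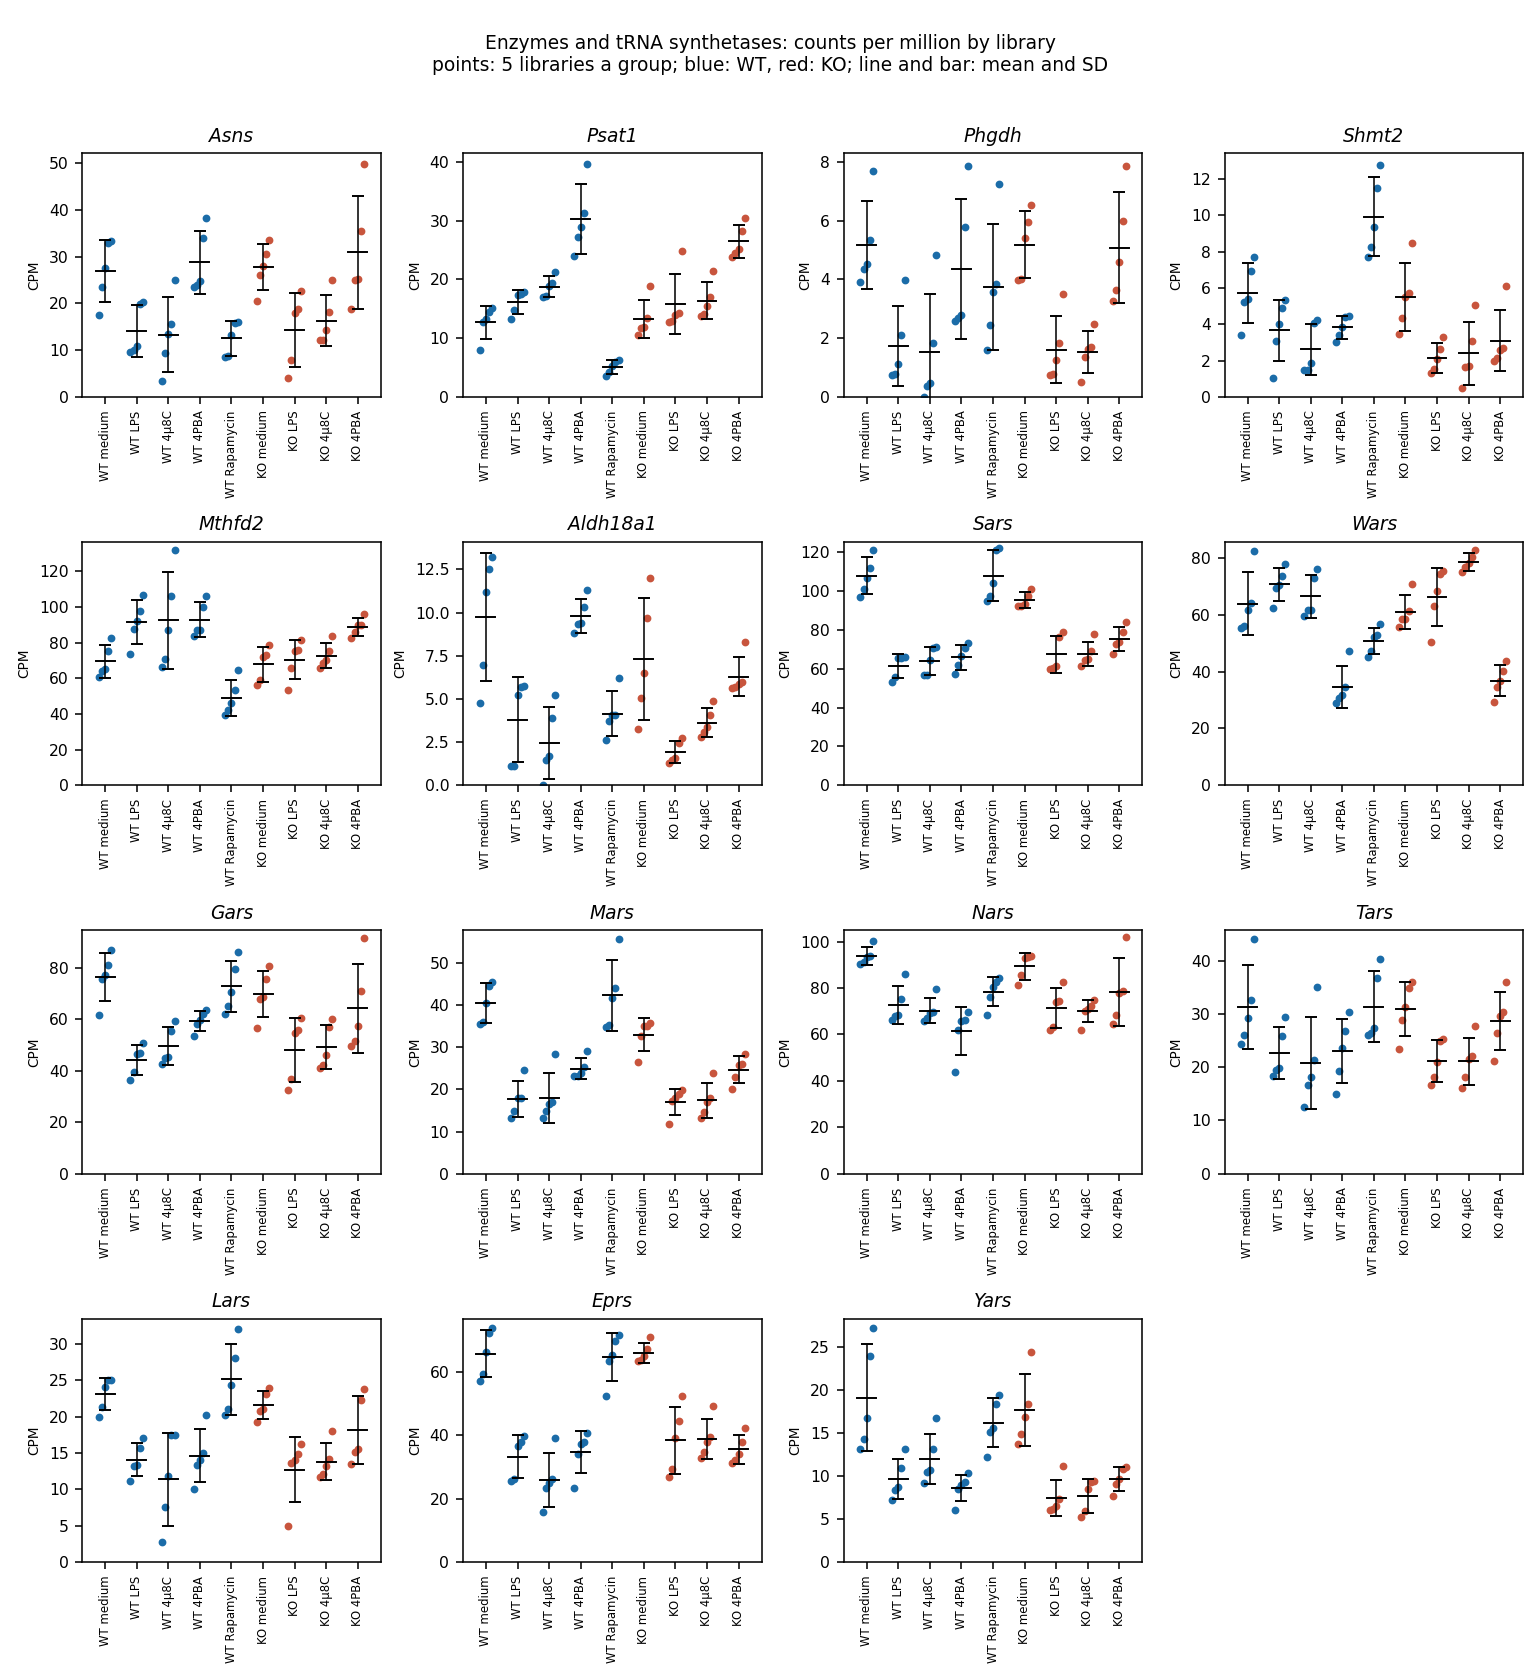
CPM (linear axes from 0) of the 15 enzymes and tRNA synthetases called in at least 3 comparisons, in each of 5 libraries per group, with the mean as a line and the SD as a bar; WT is blue and KO red. Psat1 has its highest means with 4PBA and its lowest with rapamycin, and the rapamycin points of Mars, Eprs and Sars lie with those of medium.

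Rapamycin was set against medium in WT cells, and the labels do not state whether LPS was added with it. No member rose by edgeR, while 4 of the 6 tested amino acid enzymes and the stress genes Atf3, Ddit4, Sesn2 and Trib3 fell, and 8 of the 10 synthetases did not pass. Of the 30 members 0 were higher and 11 lower, where 9.68% of all genes were higher and 13.5% lower, with a median of -0.24 against -0.02. By unadjusted p 2 were higher, Atf4 and Shmt2, and DESeq2 called 2 as higher. Psat1 held 3.56, 4.26, 5.29, 5.92 and 6.3 CPM with rapamycin and 8.02, 12.8, 13.2, 14.5 and 15.1 CPM in medium. It was 2.52-fold lower with no overlap (log2 fold change -1.33 ± 0.21, edgeR adjusted p = 1.9e-06). Asns went from 17.6, 23.6, 27.6, 32.9 and 33.3 CPM to 8.55, 8.73, 13.3, 15.8 and 16.1 CPM. The Asns groups were apart (-1.10 ± 0.32), although the call was lost with code as a term (-0.87, adjusted p = 0.073). Aldh18a1, at 2.63, 3.73, 4.06, 4.07 and 6.22 CPM with rapamycin and 4.78, 6.95, 11.2, 12.5 and 13.2 CPM in medium, fell by 1.19 on the log2 scale, and with code as a term by 1.02 (adjusted p = 0.05 as rounded, not called). Mthfd2 fell by 0.51, from 69.7 ± 9.23 to 49 ± 10.1 CPM, while Phgdh (-0.46 ± 0.42) and Shmt2 (0.79 ± 0.31) did not pass. Dendritic cell markers summed to 2772 to 3653 CPM with rapamycin and 3666 to 4635 CPM in medium, with no overlap, and of 9 tested 0 rose and 1 fell. Of 9 macrophage markers 1 rose and 3 fell, and the part of either in these differences was not tested.

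Atf3 held 196, 226, 243, 258 and 266 CPM with rapamycin, below every medium library and 2.81-fold lower by the means (-1.49 ± 0.15). Ddit4 held 5.29, 5.34, 6.39, 6.91 and 7.24 CPM, less than any library of any other group (-1.18 ± 0.20). Sesn2, a stress-induced sensor of leucine and inhibitor of mTORC1, held 17.1, 18.1, 18.9, 22.4 and 30.6 CPM with rapamycin and 31, 32, 50.3, 52.3 and 55.4 CPM in medium. These did not overlap, and Sesn2 passed only in the rapamycin comparisons, at -1.07 ± 0.19 against medium and -1.01 ± 0.19 against LPS. Trib3 was called only against medium, at 6.11, 15.1, 15.8, 20.2 and 30.1 CPM with rapamycin and 28.6, 32.1, 33.7, 39.5 and 40.7 CPM in medium (-0.97 ± 0.26). Slc3a2 fell by 0.74 on the log2 scale, from 667 ± 177 to 401 ± 89.8 CPM. Atf4 itself stood at 241 ± 34.7 CPM with rapamycin and 191 ± 33.8 CPM in medium (0.33 ± 0.14, adjusted p = 0.08). Nupr1 did not pass (-0.19 ± 0.21), nor did Ppp1r15a (-0.21 ± 0.20).

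Of the synthetases, Aars (-0.41 ± 0.15) and Wars (-0.33 ± 0.12) were called lower with rapamycin, each call being lost without any one of 7 of the 10 libraries (adjusted p up to 0.12 and 0.24). The log2 fold changes of the other 8 lay between -0.26 for Nars and 0.12 for Lars. Mars held 34.9, 35.2, 41.8, 44 and 55.6 CPM and Eprs 52.4, 63.5, 65.4, 69.8 and 71.7 CPM with rapamycin, within or next to their ranges in medium. Against LPS, 10 members were higher and 11 lower, and 29.6% of all genes were higher and 26.7% lower. The share of members higher was thus near the background, and the share lower was above it. Higher than with LPS were Atf5 (1.93 ± 0.53), Shmt2 (1.41 ± 0.34), Phgdh (1.22 ± 0.52), Atf4 (0.47 ± 0.14) and 6 synthetases, from Gars (0.72 ± 0.15) to Mars (1.26 ± 0.17). This was the sole call of Atf4 in 16 comparisons, with 203, 210.3, 239, 267 and 283 CPM with rapamycin against 145, 149.6, 174, 194 and 206 CPM with LPS. The ranges overlapped between 203 and 206 CPM only. The members lower than with LPS included Atf3 (-2.76 ± 0.16), Ddit4 (-2.27 ± 0.20), Nupr1 (-2.00 ± 0.21), Psat1 (-1.68 ± 0.21), Slc3a2 (-1.36 ± 0.13) and Ppp1r15a (-1.22 ± 0.21). Among the synthetases 1, Wars, was called lower. Shmt2 held 7.72, 8.23, 9.36, 11.5 and 12.8 CPM with rapamycin against 1.05, 3.08, 3.99, 4.87 and 5.33 CPM with LPS. The groups were apart, as were those of Mars, at 13.1 to 24.5 CPM with LPS, and of Eprs, at 25.5 to 39.7 CPM. Phgdh and Stc2 lost their call without any one of 6 and 2 single libraries (adjusted p up to 0.17 and 0.084). Eif4ebp1, also called lower, lost its call with code as a term (-0.29, edgeR adjusted p = 0.077). Dendritic cell markers summed to 2772 to 3653 CPM with rapamycin and 3512 to 5967 CPM with LPS, and of 9 tested 1 rose and 5 fell. Macrophage markers summed to 2647 to 2998 CPM and 2181 to 2486 CPM, and 3 of 9 rose and 2 fell. The part of either in these differences was not tested.

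The genotype was compared within each treatment, to see whether loss of the Bat3 gene changes the stress response. Few members differed: Ddit4 in medium, and Ddit4, Nupr1 and Stc2 with LPS, all higher in KO cells. In medium 1 member was higher and 0 lower (by unadjusted p 2 higher and 0 lower, by DESeq2 1 and 0), where 6.61% of all genes were higher and 2.31% lower, so the members' share was not above the background. With LPS 3 were higher and 0 lower (by unadjusted p 5 and 2, by DESeq2 3 and 0), where 4.31% and 1.75% of all genes were. With 4µ8C edgeR and DESeq2 called 0 (6 by unadjusted p) and with 4PBA 0 (3 by unadjusted p), where 0.953% and 0.496% of all genes were called. Log2 fold changes of the members ran from -0.63 for Yars to 1.55 for Stc2 with 4µ8C, and from -0.64 for Aldh18a1 to 0.79 for Eif2ak3 with 4PBA. Atf4 gave 0.27 ± 0.14 in medium, 0.29 ± 0.14 with LPS, 0.24 ± 0.14 with 4µ8C and 0.35 ± 0.14 with 4PBA, and none of these passed. The macrophage marker sum was 2345 to 3717 CPM in WT and 2007 to 2318 CPM in KO medium libraries, and 2181 to 2486 CPM and 1952 to 2321 CPM with LPS; 3 of 9 markers were lower in KO medium and 0 with LPS. Its part in the calls was not tested. Without the KO replicate 4 libraries, 1 member was called in medium and 2 with LPS, where Stc2 no longer passed the filter on low counts.

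Ddit4 held 19.5, 22.4, 32.1, 34.4 and 41.3 CPM in KO medium libraries, all above the 12.8 to 16 CPM of WT medium libraries. The log2 fold change was 1.08 ± 0.17 (2.12-fold higher, edgeR adjusted p = 1e-05). With LPS it held 56.1, 74.3, 78.1, 83.7 and 100.1 CPM in KO and 25, 26.6, 27.9, 34.6 and 38.3 CPM in WT libraries. These were apart as well (1.37 ± 0.16, adjusted p = 1.1e-07). With 4µ8C the KO libraries held 38.6, 40.5, 43.8, 46.4 and 49.9 CPM and the WT libraries 38.9, 40.3, 48.4, 57.2 and 62.9 CPM (-0.18 ± 0.16, adjusted p = 0.69). With 4PBA they held 33.1, 36, 39.6, 45.4 and 51.8 CPM and 47.3, 50, 55.6, 61.6 and 61.6 CPM (-0.42 ± 0.16, adjusted p = 0.25). In WT cells Ddit4 was 3.51-fold higher with 4µ8C and 3.89-fold higher with 4PBA than in medium, and in KO cells 1.46-fold higher and 1.37-fold higher. With both agents the genotypes overlapped. The interactions of genotype with 4µ8C (-1.26 ± 0.23, edgeR adjusted p = 0.002) and with 4PBA (-1.51 ± 0.23, adjusted p = 1.4e-05) were called, and that with LPS was not (0.29 ± 0.24, adjusted p = 0.79). These were the only interactions called among the members by edgeR and by DESeq2, where 1.79% of all genes had one with 4µ8C, 4.73% with 4PBA and 0.00972% with LPS.

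Library code moves with genotype in medium and with LPS, and Ddit4 had a log2 difference of -0.32 ± 0.12 (adjusted p = 0.2) in outer against inner codes within groups. With code as a term, Ddit4 was 0.78 higher in KO medium (adjusted p = 0.05 as rounded, not called), 1.11 higher with LPS (adjusted p = 0.00016), -0.94 in the interaction with 4µ8C (adjusted p = 0.4) and -1.20 in that with 4PBA (adjusted p = 0.0036). Leaving out KO replicate 4 gave 1.17 in medium, 1.39 with LPS, -1.35 for the interaction with 4µ8C and -1.58 for that with 4PBA, all called. Nupr1 held 198, 207, 211, 236 and 283 CPM in KO and 85.5, 114, 151, 165 and 166 CPM in WT libraries with LPS. The groups did not overlap (0.74 ± 0.20, adjusted p = 0.015), while the code term gave 0.80 (adjusted p = 0.077), and the call was lost without WT LPS replicate 4 or 5 or KO LPS replicate 2 (adjusted p up to 0.069). Stc2, a secreted glycoprotein induced by ER stress, held 1.24, 3.32, 4.41, 5.75 and 13.1 CPM in KO and 0, 0.375, 1.14, 2.24 and 2.85 CPM in WT libraries. The Stc2 ranges overlapped on at most 30 counts in any library (2.00 ± 0.61), and the value was 1.06 with code as a term (adjusted p = 0.55). Its call was lost without WT LPS replicate 1, 2 or 4 or KO LPS replicate 3 or 4 (adjusted p up to 0.2).

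**Figure D4:**
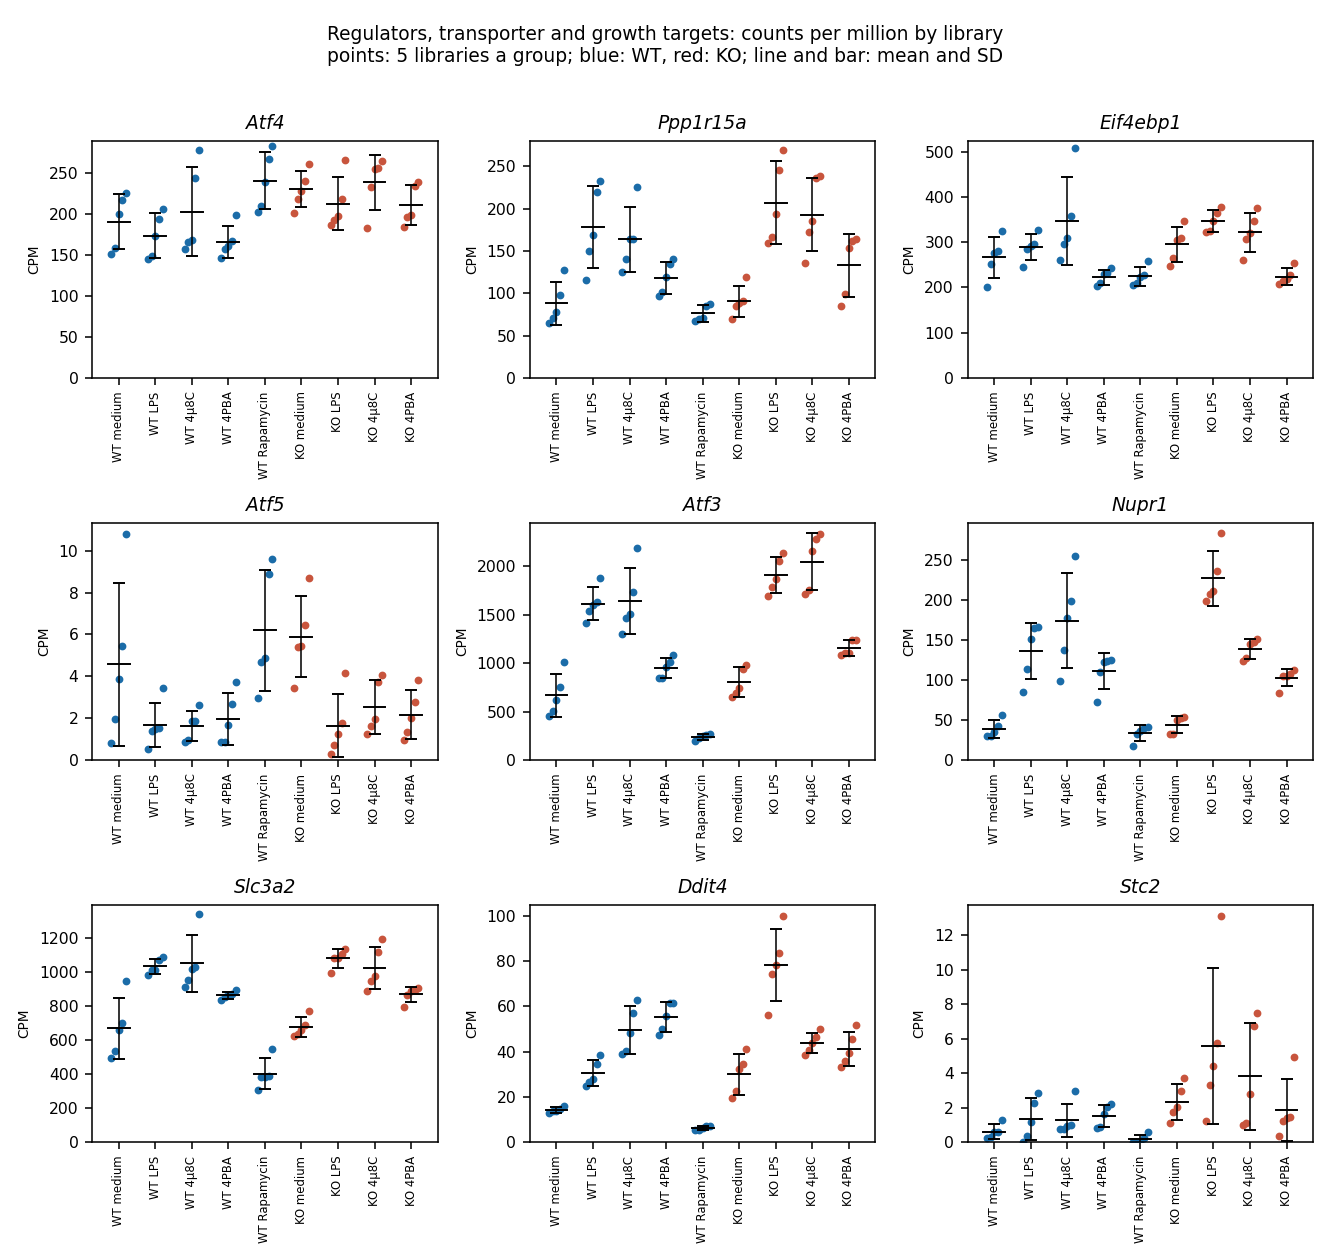
CPM (linear axes from 0) of Atf4 and of the 8 regulators, transport and growth genes called in at least 3 comparisons, in each of 5 libraries per group, with the mean as a line and the SD as a bar; WT is blue and KO red. Ddit4 is higher in KO than in WT libraries in medium and with LPS and overlaps with 4µ8C and 4PBA, while Atf4 overlaps between most groups.

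Other genes of the pathway, taken from lists beside the members, moved as follows. Of 13 other cytosolic synthetases and their scaffold proteins tested, 0 rose and 5 fell in WT cells after LPS (median -0.38), led by Vars (-1.79 ± 0.42) and Iars (-1.71 ± 0.33). Of 16 mitochondrial synthetases tested, 0 rose and 7 fell (median -0.62), Mars2 among them (-2.36 ± 0.68). With rapamycin against medium 3 of the 13 cytosolic synthetases and scaffold proteins rose and 1 fell. Vars rose by 1.01 ± 0.32 and the scaffold protein gene Aimp1 by 1.0 ± 0.18. Of the 15 sensors, eIF2 subunits and exchange factor subunits, 3 rose and 3 fell after LPS, with a fall of the exchange factor subunit Eif2b3 (-2.23 ± 0.48) and a rise of Ppp1r15b (0.84 ± 0.14), the constitutive partner of the eIF2α phosphatase. Of 27 other tested genes described as ATF4 or CHOP targets, 8 rose and 4 fell (median 0.00), where the growth factor Vegfa (1.24 ± 0.24) and the cystine transporter Slc7a11 (1.12 ± 0.13) rose and the neutral amino acid transporter Slc1a5 (-1.62 ± 0.30) fell. With rapamycin 5 of these rose and 8 fell, the mitochondrial folate enzyme Aldh1l2 at -2.79 ± 0.71. Of 16 ER stress genes outside the PERK branch, 2 rose and 3 fell after LPS, and 2 rose and 8 fell with rapamycin, where the chaperone Hspa5 was lower (-0.98 ± 0.13). Between genotypes in medium 5 of the 27 other targets were higher in KO cells and 0 lower. The largest difference was that of the C/EBP gene Cebpb (3.51 ± 0.65, 32.8 against 2.87 CPM). In this comparison every WT library has an outer and every KO library an inner code, and with code as a term the calls over all genes went from 918 to 68. Of all genes tested, 18.8% were higher and 21.3% lower after LPS in WT cells. With rapamycin against medium 9.68% were higher and 13.5% lower, and in KO against WT cells in medium 6.61% and 2.31%. After LPS the shares of the sensor list and of the ER stress list were near or below those of all genes.

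Across the 16 comparisons of a pair of groups every tested member was called at least once, and 23 of 30 were called in 3 or more. The same was not counted over all genes. Single comparisons called up to 5794 of the 10287 genes tested, so these counts do not set the members apart from other genes. Ddit4 had the most calls, 14 of 16, higher in 10 and lower in 4. Atf3 followed with 10 calls and Nupr1 and Mars with 9 each. Atf4, Trib3, Cebpg, Aars and Eif2ak3 were called once each, and Ddit3 and Sesn2 in 2 comparisons. These comparisons share medium and LPS libraries, so the counts describe how often a member stood out and are not independent.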

How the data were processed

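Expected counts and TPM per gene came from RSEM gene tables, 1 per library, per the file headers and the submitters' processing notes, which also name bcl2fastq. Aligner, genome build and strand setting were not given in the sources used here. The deposited expected counts were rounded to whole numbers (9.09% were not whole), filtered with filterByExpr, scaled by TMM and fitted over all 45 libraries with edgeR's quasi-likelihood test (edgeR 4.0.16, limma 3.58.1, R 4.3.3; 36 residual degrees of freedom; Benjamini-Hochberg adjustment over 10287 genes; call at adjusted p under 0.05). DESeq2 1.42.0 was an alternative. The deposited TPM values of the authors served only to rank members by level. SE is the log2 fold change over the square root of F. The labels speak of biological replicates without naming animals or cultures, so p-values measure the spread between these samples. Replicate numbers were taken to pair libraries where every same-number correlation of deviations exceeded 0.1, which held for 4PBA against medium (WT 0.21 to 0.62, KO 0.37 to 0.65) and against LPS (WT 0.27 to 0.60, KO 0.52 to 0.70), and in KO cells for LPS against medium (0.30 to 0.60) and 4µ8C against medium (0.19 to 0.68) and LPS (0.22 to 0.64). The main fit did not use this pairing, and replicate number was entered as a block in an alternative run only. Every member may be named. List genes are named when called, at most 4 per list and comparison. Members and lists were chosen with earlier results of these data known. The edgeR step was tested on simulated counts. One marker gene and one promoter stretch are not reported here.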

Additional observations from a re-analysis of the deposited data

Results flagged for a closer look

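Single libraries stood apart from the other 4 of their group in 11 of 207 sets of 5 libraries tested, over 23 members, by a gap to the nearest library above 0.71 of the group's range. Chance alone gives about 1 in 20 such sets. In WT cells with 4µ8C, Slc3a2 reached 1340.2 CPM in 1 library with the next at 1027 CPM, Mars 28.3 CPM with the next at 16.9 CPM, Nars 79.6 CPM with the next at 69.6 CPM, and Stc2 2.95 CPM with the next at 0.97 CPM. In KO cells with LPS, Psat1 reached 24.9 CPM with the next at 14.3 CPM and Yars 11.2 CPM with the next at 7.38 CPM, while Lars lay low at 4.94 CPM with the next at 13.6 CPM. In KO cells with 4PBA, Shmt2 reached 6.08 CPM with the next at 2.70 CPM, Stc2 4.95 CPM with the next at 1.43 CPM and Aldh18a1 8.28 CPM with the next at 5.97 CPM, while Nupr1 lay low at 84.2 CPM with the next at 105 CPM.

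The interaction of treatment with genotype was called for Ddit4. Its rise over medium was smaller in KO than in WT cells by 1.26 on the log2 scale with 4µ8C (-1.26, edgeR adjusted p = 0.002) and by 1.51 with 4PBA (-1.51, adjusted p = 1.4e-05). With library code as a term the interaction with 4µ8C was not called (-0.94, adjusted p = 0.4), and that with 4PBA was (-1.20, adjusted p = 0.0036). All WT medium libraries carry outer and all KO medium libraries inner codes.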

How the results depend on the processing

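Called members kept their direction under every alternative run, and no value reversed. Of 171 calls on single members, 2 were lost with RLE size factors, 17 with no filter on low counts, 22 with library code as a term, 1 in DESeq2 and 0 with a replicate block, and, without KO replicate 4, 16 of the 71 still tested. Stc2 did not pass the filter on low counts there, so its 2 calls that use KO libraries gave no value. With 1 library left out, 199 of 1730 were lost.

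The count of members called against medium ran, with 1 library left out, from 15 to 17 for LPS, 18 to 20 for 4µ8C, 13 to 17 for 4PBA and 9 to 12 for rapamycin in WT cells, and from 15 to 19, 15 to 18 and 9 to 16 for LPS, 4µ8C and 4PBA in KO cells. Against LPS it ran from 0 to 1 (4µ8C), 8 to 11 (4PBA) and 20 to 23 (rapamycin) in WT, and from 0 to 1 (4µ8C) and 9 to 13 (4PBA) in KO cells. Between the genotypes it was 1 to 2 members in medium and 1 to 3 under LPS, while 4µ8C gave 0 to 1 (1 without WT 4µ8C replicate 5) and 4PBA 0 to 0. For the interactions it was 0 to 0 (LPS), 1 to 1 (4µ8C) and 1 to 1 (4PBA).

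With code as a term, KO against WT gave 0 members in medium and 1 with LPS, 4µ8C against LPS in WT cells gave 0 and the interaction with 4µ8C gave 0. Without KO replicate 4, 4PBA against medium in KO cells gave 9 and 4µ8C against LPS gave 0. With a replicate block, KO against WT in medium, where the numbers do not pair the libraries, gave 2, and 4µ8C against LPS in KO cells, where they do, gave 2. The block moved no other count of members by over 1.5 times. The cause of these shifts was not tested. Over all genes, code as a term moved KO against WT from 918 to 68 genes in medium, 623 to 161 with LPS and 51 to 148 with 4PBA, 4PBA from 4495 to 2790 against medium and from 2781 to 1526 against LPS in WT cells, 4µ8C against LPS in WT cells from 21 to 0, and the interactions from 184 to 0 (4µ8C) and 487 to 126 (4PBA). Without KO replicate 4, KO against WT moved from 98 to 56 with 4µ8C and 51 to 28 with 4PBA, the interaction with 4µ8C from 184 to 77, and 4µ8C against LPS in KO cells from 3 to 0. DESeq2 called 177 and 87 genes for KO against WT with 4µ8C and 4PBA, 57 and 9 for 4µ8C against LPS in WT and KO cells, and 4 for the interaction with LPS, where edgeR called 98, 51, 21, 3 and 1. With the block these were 175, 115, 18, 13 and 28, and with no filter 71, 35, 13, 1 and 1.

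Low counts limit Atf5, Cebpg, Phgdh, Shmt2, Aldh18a1, Eif2ak3 and Stc2, which had at most 63 counts in any library, and the 5 members not tested. Bag6 did not pass between genotypes, and KO replicate 4 was close to WT levels.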
